A study of Mus musculus with 12 samples.

Results

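The genes described here are 9 markers that tell the supporting cells of the neonatal mouse cochlea apart, namely *Prox1*, *Ngfr*, *Emx2*, *Npy*, *Slc1a3*, *Fabp7*, *Matn4*, *Epyc* and *Anxa5*. They were taken by symbol from a table of normalized counts, and 9 of 9 were among its 27754 genes and passed the filter on low values, a mean of at least 10. Supporting cells were exposed to stabilized β-catenin, the effector of Wnt signaling, to ask how the response differs between early and late neonatal ages. Treated pups carried Sox2-CreER/+ and 1 floxed allele of β-catenin, β-catenin-flox(Exon3)/+, from which Cre removes the exon with the GSK3β phosphorylation site, so that the protein escapes degradation. Untreated pups were littermates with β-catenin-flox(Exon3)/+ and no Cre. All pups, of mixed C57BL/6 and CD1 strain, received tamoxifen through the milk of mothers injected on postnatal day 1 (P1 groups) or day 4 (P4 groups), and were harvested 72 h later, on day 4 or day 7. Recombination was thus limited to cells in which *Sox2* is active, and in those to the cells where CreER was induced. RNA came from both ears of 1 pup per library, after an incubation meant to separate the epithelium from mesenchyme and neurons. There were 3 libraries each of P1 treated, P1 untreated and P4 untreated pups and 2 of P4 treated pups, replicates 1 and 3; P4 treated replicate 2 was not analysed here.

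Supporting cells surround the hair cells of the organ of Corti and hold them in place. Inner phalangeal and border cells lie around the inner hair cells, pillar cells form the tunnel between inner and outer hair cells, and Deiters cells stand beneath the outer ones. *Prox1*, a homeobox transcription factor, is known from pillar and Deiters cells, and *Ngfr*, the p75 neurotrophin receptor, from pillar cells. *Emx2* encodes a homeobox factor that sets hair bundle orientation, and *Npy* the peptide transmitter neuropeptide Y. *Slc1a3* encodes GLAST, which takes up glutamate around inner hair cells and in glia, and *Fabp7* the brain fatty acid binding protein, also a gene of glia. *Matn4* encodes the matrix adaptor matrilin 4, *Epyc* the small proteoglycan epiphycan and *Anxa5* a protein that binds membrane phospholipids in the presence of calcium. In a bulk library, fewer cells of a type and less RNA per cell cannot be told apart.

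The promoters of these genes are shown for a member called higher at P1 (*Prox1*), one called lower (*Slc1a3*) and *Emx2*, whose difference between ages was not called, as given by RefSeq on GRCm38.p6, the mm10 build of the data, from 250 bases before to 50 after a start site. CpG sites are in capitals in the first 3 sequences. *Prox1* lies on chromosome 1 from 190118035 to 190170714 on the minus strand, *Emx2* on chromosome 19 from 59458372 to 59465357 on the plus strand and *Slc1a3* on chromosome 15 from 8634124 to 8710764 on the minus strand. *Ngfr* lies on chromosome 11 from 95568818 to 95587735, *Matn4* on chromosome 2 from 164389393 to 164405160 and *Anxa5* on chromosome 3 from 36448923 to 36475894, all on the minus strand. *Npy*, on chromosome 6 from 49822710 to 49829507, and *Fabp7*, on chromosome 10 from 57784881 to 57788450, lie on the plus strand. All 9 markers are annotated as protein coding.
Prox1 promoter, chr1:190170778-190171077, minus strand: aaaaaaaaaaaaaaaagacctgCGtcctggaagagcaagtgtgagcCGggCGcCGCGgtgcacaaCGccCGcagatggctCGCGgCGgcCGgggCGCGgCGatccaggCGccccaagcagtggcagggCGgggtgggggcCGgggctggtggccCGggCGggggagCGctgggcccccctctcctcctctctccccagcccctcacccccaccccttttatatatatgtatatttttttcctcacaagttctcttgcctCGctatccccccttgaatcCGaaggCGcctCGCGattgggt
Emx2 promoter, chr19:59458440-59458739, plus strand: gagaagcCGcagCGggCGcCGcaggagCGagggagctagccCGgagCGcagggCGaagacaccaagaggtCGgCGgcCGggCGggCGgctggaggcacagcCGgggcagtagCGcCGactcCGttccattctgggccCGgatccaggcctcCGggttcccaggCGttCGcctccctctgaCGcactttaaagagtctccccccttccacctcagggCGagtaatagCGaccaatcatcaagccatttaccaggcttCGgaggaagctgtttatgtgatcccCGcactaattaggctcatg
Slc1a3 promoter, chr15:8710758-8711057, minus strand: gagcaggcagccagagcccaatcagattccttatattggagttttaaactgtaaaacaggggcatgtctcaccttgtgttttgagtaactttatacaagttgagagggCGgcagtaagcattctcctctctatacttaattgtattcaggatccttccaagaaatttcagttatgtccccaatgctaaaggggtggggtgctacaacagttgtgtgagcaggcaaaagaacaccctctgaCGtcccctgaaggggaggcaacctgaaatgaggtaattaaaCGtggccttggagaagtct
These *Prox1* and *Emx2* windows held 25 and 26 CpG sites (a second annotated *Prox1* start held 14), and those of *Ngfr* and *Npy* 23 and 24. The *Slc1a3* window held 3, and those of *Fabp7* and *Epyc* 6 and 2. The *Anxa5* window held 16, and the windows at the *Matn4* starts 9 and 19. Among 32851 promoters of this length the median was 7, 21.5% had at least 23 and 31.4% at most 3. The CpG counts were compared after the levels were known and carry no test.

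*Epyc*, on chromosome 10 from 97644068 to 97682454 on the plus strand, was the member with letters of a TCF/LEF motif, the kind of site through which β-catenin acts. The motif CTTTGAT and the SOX motif AACAAT were searched on both strands and are in capitals.
Epyc promoter, chr10:97643818-97644117, plus strand: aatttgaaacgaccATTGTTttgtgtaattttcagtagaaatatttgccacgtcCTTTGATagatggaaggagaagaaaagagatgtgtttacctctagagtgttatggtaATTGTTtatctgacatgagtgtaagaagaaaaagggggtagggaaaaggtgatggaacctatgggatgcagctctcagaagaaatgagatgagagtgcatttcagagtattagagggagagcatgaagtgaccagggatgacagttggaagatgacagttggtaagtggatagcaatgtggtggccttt
CTTTGAT stood 196 bases before the start site, and AACAAT on the minus strand at 236 and at 139 bases before it. CTTTGAT was in 3.73% and AACAAT in 10.7% of all promoters of this length. A second annotated *Epyc* start held both motifs too, and the promoters of the other 8 members held neither. A match of letters is not evidence of binding, and its absence from this window says nothing of the factor.

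The members differed widely in level when read per kilobase of merged exons. In P1 untreated libraries, *Epyc* stood highest at 42040 ± 4910 normalized counts per kb (SD, n = 3), followed by *Anxa5* at 18010 ± 1130 and *Npy* at 11390 ± 4357. *Fabp7* (3540 ± 74.6), *Slc1a3* (906.9 ± 93.4), *Emx2* (347.7 ± 83.5), *Prox1* (270.8 ± 68.2) and *Matn4* (235.2 ± 16.6) came next, and *Ngfr* was lowest at 71.58 ± 0.933 per kb (SD, n = 3 each). *Emx2* and *Prox1* were neighbours whose libraries overlapped, and so were *Prox1* and *Matn4*. *Anxa5* and *Npy* did not overlap at P1 in untreated pups (16710 to 18680 against 8131 to 16340) and did overlap in treated ones (12750 to 19820 against 11330 to 19960). In P4 untreated libraries *Matn4* ranked above *Emx2* and *Prox1*, at 261.9 ± 89.9, 223 ± 53.2 and 160.9 ± 17 per kb (SD, n = 3 each), again with overlap between neighbours.

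**Figure D1:**
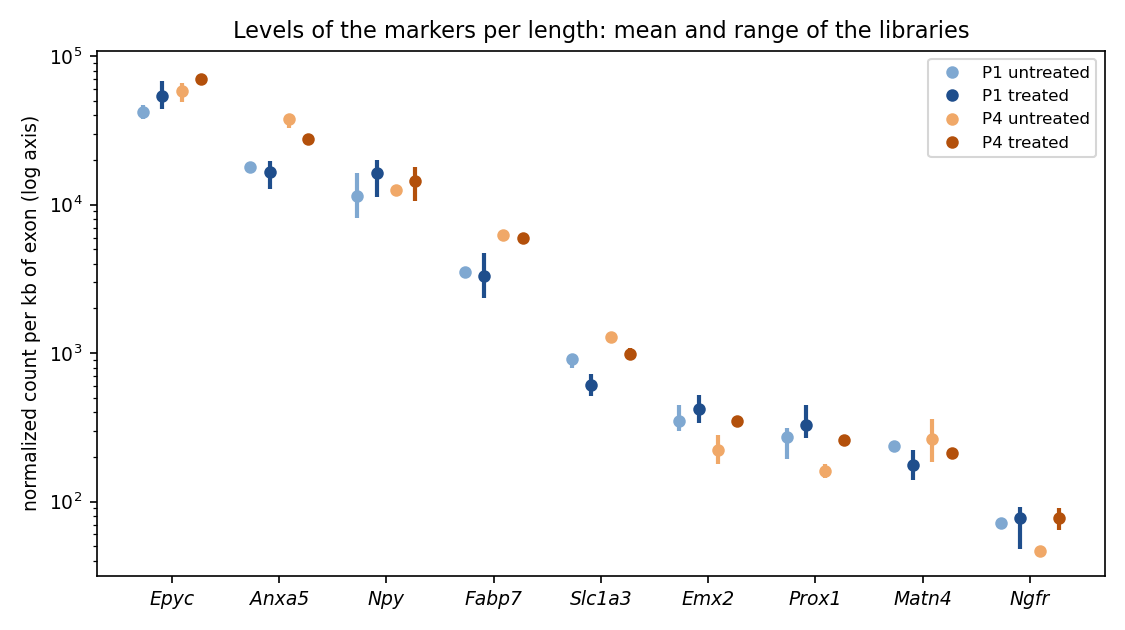
Normalized counts per kb of merged exons on a log axis, for the 9 markers in order of their level in P1 untreated libraries. Points are group means and lines run from the lowest to the highest library (3 libraries a group, 2 in P4 treated). Epyc lies far above Ngfr in every group. In P1 untreated libraries Prox1 overlaps both Emx2 and Matn4, which do not overlap each other.

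Each library summed to between 41.23 and 44.15 M normalized counts. The 4 groups were fitted together by limma on log2(normalized count + 1), over 18400 genes. Genes were called where the Benjamini-Hochberg adjusted p was under 0.05 and the absolute log2 fold change over 0.32. Fold changes are on this log2 scale throughout. *Xist*, made in female cells, was at 13 to 26 normalized counts in P1 treated, 3268 and 4180 in P4 treated and 32 to 39 in P4 untreated libraries, and at 16, 3030 and 2794 in P1 untreated ones. The sex of the pups therefore differed between groups. P1 treated replicate 2 stood apart among the members, with the highest *Prox1* and *Emx2* and the lowest *Fabp7*, *Matn4* and *Anxa5* of the 11 libraries. In *Ngfr* it was level with P1 treated replicate 3, at 317 against 316. It was also the highest library for 7 of 10 markers of the stria vascularis and melanocytes. *Dct*, a melanin synthesis gene, was at 1590 normalized counts there and at 0 and 6 in the other P1 treated libraries, and *Tyr*, the tyrosinase gene, at 288 against 16 and 12. The list summed to 52314, 70880 and 106614 in P1 treated and to 37025 to 53977 in P1 untreated libraries. Most of each sum was 1 gene, *Slc12a2*, at 45341, 61243 and 100805 in P1 treated and 30566 to 46615 in P1 untreated libraries. The sums are therefore not a measure of stria and melanocyte cells as a whole. The part of these cells in the marker values was not tested.

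Between P1 untreated and P4 untreated libraries, that is between tissue of day 4 and day 7, *Anxa5*, *Fabp7* and *Slc1a3* rose with age and *Prox1* fell. *Anxa5* rose 2.08-fold, *Fabp7* 1.77-fold and *Slc1a3* 1.41-fold, and *Prox1* was 1.65-fold higher at the earlier age. Of the 9 markers, 4 were called, 3 lower and 1 higher at P1, where 19.9% of all genes tested were called, 9.38% lower and 10.5% higher at P1. The groups did not overlap for 7 of 9 markers (77.8%), as for 41.3% of all genes.

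*Anxa5* measured 33203, 33115 and 29688 normalized counts in P1 untreated and 58290, 70478 and 71170 in P4 untreated libraries. All P4 values lay far above the P1 values, with a log2 fold change of P1 over P4 of -1.05 by limma (standard error 0.145, adjusted p = 0.00104). *Fabp7* was at 4326, 4511 and 4438 at P1 and at 7928, 7991 and 7533 at P4. The libraries within each age were close together and the ages did not overlap (limma log2 fold change -0.82, standard error 0.195, adjusted p = 0.0144). *Slc1a3* was at 8212, 8193 and 6821 at P1 and at 10165, 11365 and 11159 at P4, again without overlap (-0.50, standard error 0.131, limma adjusted p = 0.0231).

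*Prox1* measured 2616, 2588 and 1611 normalized counts at P1 and 1336, 1215 and 1499 at P4 in untreated pups. P1 untreated replicate 3 lay near the P4 values, and the log2 fold change was 0.72 by limma (standard error 0.225, adjusted p = 0.0446). *Ngfr* and *Emx2* went the same way without being called. *Ngfr* was at 249, 243 and 248 against 165, 160 and 158 (0.61, 95% confidence interval 0.06 to 1.17, adjusted p = 0.107 from limma), and *Emx2* at 1333, 892 and 906 against 535, 846 and 627 (0.64, interval 0.16 to 1.12, adjusted p = 0.0595 from limma). Neither gene's groups overlapped. *Epyc* was at 96162, 105787 and 121070 at P1 and at 168670, 126105 and 156573 at P4, a log2 fold change of -0.48 that missed the threshold (adjusted p = 0.0706 from limma). *Npy* (-0.19, interval -0.83 to 0.44) and *Matn4* (-0.10, interval -0.61 to 0.41) overlapped between the ages.

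With the replicate numbers as a block, the call of *Prox1* was lost (adjusted p = 0.0567 from limma) and *Epyc* was called (0.0356). The call of *Prox1* was lost in 11 of 24 alternatives, among them leaving out P1 untreated replicate 1 (adjusted p = 0.139) or 2 (0.129), P4 untreated replicate 1 (0.099), 2 (0.117) or 3 (0.0723) or P4 treated replicate 1 (0.0607) or 3 (0.0608). The call of *Slc1a3* was lost without P1 untreated replicate 3 (0.0862) or P4 untreated replicate 2 (0.064) or 3 (0.0715), so that 2 members were called without P4 untreated replicate 3. *Emx2* was called without P1 treated replicate 2 (0.0474) or P4 untreated replicate 2 (0.0296). *Epyc* was called without P1 treated replicate 3 (0.0283) or P4 untreated replicate 2 (0.045), and *Ngfr* without P1 treated replicate 1 (0.0269). In a fit of only the untreated groups, *Ngfr* (adjusted p = 0.0313 from limma) and *Epyc* (0.044) were called. A weight per library gave calls of *Emx2* (adjusted p = 0.0198 from limma) and *Epyc* (0.0252). With log2 *Xist* as a covariate the calls of *Prox1* (adjusted p = 0.0633), *Slc1a3* (0.143) and *Fabp7* (0.0648) were lost and *Emx2* was called (0.0308). The call of *Anxa5* held in all 24 alternatives.

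**Figure D2:**
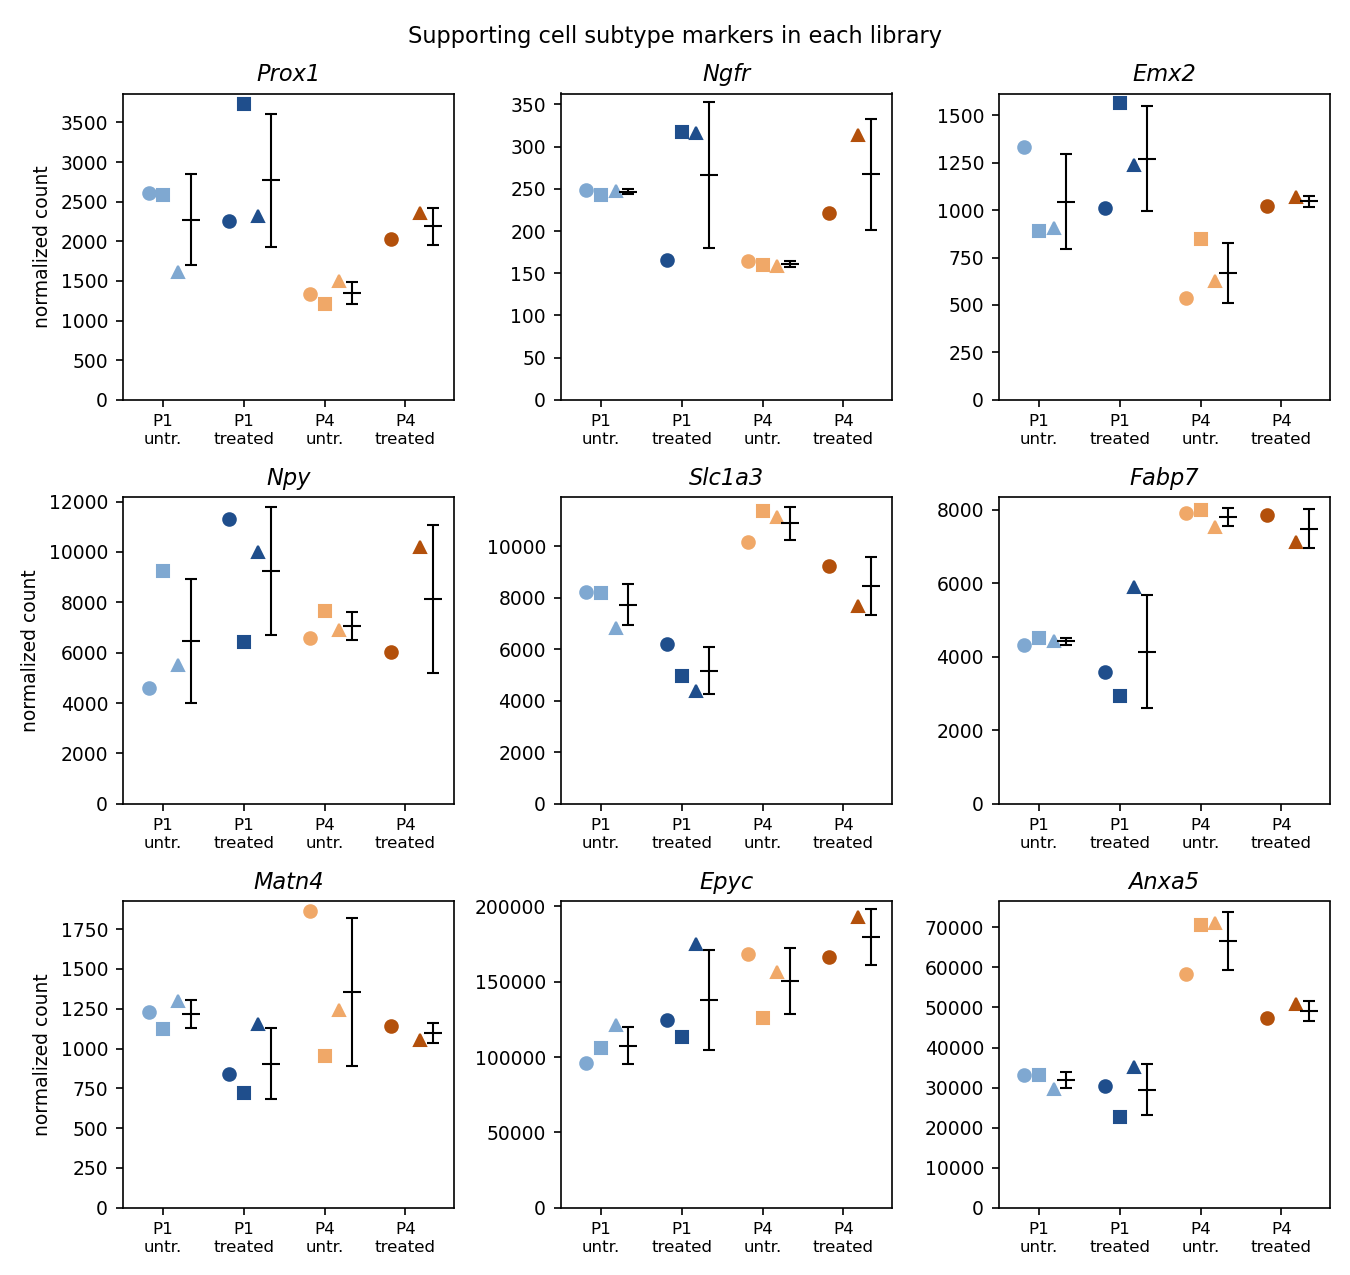
Normalized counts of each marker in every library (y axis from 0; circle, square and triangle are replicates 1, 2 and 3), with the group mean and SD in black. Anxa5, Fabp7 and Slc1a3 are higher at P4 than at P1 in both treatments, and at P4 the treated libraries lie above the untreated ones for Prox1, Ngfr and Emx2 and below them for Slc1a3 and Anxa5.

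Between treated libraries, the same question of age was asked after β-catenin stabilization. *Anxa5*, *Fabp7* and *Slc1a3* were again called higher at P4, by 1.69-fold, 1.89-fold and 1.64-fold, and *Prox1* was not called. These 3 of 9 markers compare with 11.1% of all genes called in either direction and 5.42% of all genes called lower at P1. The groups did not overlap for the same 3 markers, 33.3% of them, against 43.1% of all genes.

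*Anxa5* was at 30470, 22664 and 35215 normalized counts in P1 treated and at 47304 and 50806 in P4 treated libraries (limma log2 fold change -0.76, standard error 0.163, adjusted p = 0.0169). *Fabp7* was at 3595, 2946 and 5893 against 7860 and 7120 (-0.92, standard error 0.218, adjusted p = 0.0252 from limma), and its P1 treated libraries were spread far more widely than the P1 untreated ones. *Slc1a3* was at 6191, 4964 and 4380 against 9248 and 7671 (-0.72, standard error 0.147, adjusted p = 0.0139 from limma). The log2 fold changes of *Prox1* (0.30, interval -0.25 to 0.86), *Emx2* (0.26, interval -0.28 to 0.80) and *Ngfr* (-0.05, interval -0.66 to 0.57) had intervals that held 0. The calls of *Anxa5*, *Fabp7* and *Slc1a3* rested on both P4 treated libraries, as leaving out 1 left 1 in that group. Without P4 treated replicate 1 their log2 fold changes were -0.81, -0.84 and -0.58, and without replicate 3 -0.71, -0.99 and -0.85. No member was called with log2 *Xist* as a covariate, and 28 of all genes were instead of 2034. *Xist* was low in all P1 and high in both P4 treated libraries, so sex and age cannot be told apart here. Without P1 treated replicate 1, *Fabp7* lost its call (adjusted p = 0.065), as it did with the replicate block (0.059), and without P1 treated replicate 3 *Epyc* was called (0.0489).

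Treatment at P1 left all 9 markers below the threshold. No marker was called by limma, where 0.353% of all genes were, and 1 had an unadjusted p under 0.05, *Slc1a3*, as did 12.2% of all genes. *Slc1a3* was at 6191, 4964 and 4380 normalized counts in treated and 8212, 8193 and 6821 in untreated libraries. All 3 treated values lay below all untreated ones, as the groups failed to overlap for 15.3% of all genes (1 of 9 markers, 11.1%). The log2 fold change was -0.59 (95% confidence interval -0.88 to -0.30, adjusted p = 0.113 from limma), a 1.51-fold lower level. Without P1 treated replicate 1 it was -0.73 and was called (adjusted p = 0.0199 from limma), where 371 of all genes were called instead of 65. This was the 1 call of *Slc1a3* at P1 among 24 alternatives, whose adjusted p reached 0.635. *Xist* was low in all P1 treated libraries and high in P1 untreated replicates 2 and 3, so sex was not balanced at P1. With log2 *Xist* as a covariate 0 markers were called, and 7 of all genes instead of 65.

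The other markers at P1 overlapped between treated and untreated libraries. *Npy* was at 11300, 6415 and 10010 against 4602, 9249 and 5494 (0.54, interval -0.09 to 1.18), *Epyc* at 124490, 113405 and 175340 against the untreated values above (0.34, interval -0.04 to 0.71) and *Matn4* at 842, 723 and 1153 against 1228, 1126 and 1297 (-0.45, interval -0.96 to 0.06). *Prox1* was at 2257, 3739 and 2316 and *Emx2* at 1013, 1563 and 1236 in treated libraries, with log2 fold changes of 0.28 (interval -0.22 to 0.78) and 0.29 (interval -0.19 to 0.77). *Ngfr* was uneven among treated pups, at 166, 317 and 316, against 243 to 249 in untreated ones (0.05, interval -0.50 to 0.60). *Fabp7* (-0.16, interval -0.59 to 0.27) and *Anxa5* (-0.14, interval -0.46 to 0.18) changed sign without P1 treated replicate 2, at 0.06 and 0.04. The intervals of *Prox1*, *Emx2* and *Ngfr* still allow changes of more than 0.5 on the log2 scale.

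Treatment at P4 also gave no call among the markers, where 0.0543% of all genes were called by limma. At an unadjusted p under 0.05 there were 5 of 9, *Prox1*, *Ngfr* and *Emx2* higher and *Slc1a3* and *Anxa5* lower in treated libraries, against 11.6% of all genes. For these 5 (55.6% of the markers) the groups did not overlap, as for 33.5% of all genes. Both P4 treated libraries were high and all 3 P4 untreated libraries low in *Xist*, so sex and treatment cannot be told apart at P4.

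*Prox1* was at 2026 and 2355 normalized counts in P4 treated and at 1336, 1215 and 1499 in P4 untreated libraries. Both treated values lay above the untreated ones and within the range of P1 untreated pups (log2 fold change 0.70, 95% confidence interval 0.14 to 1.26, adjusted p = 0.338 from limma). *Emx2* was at 1024 and 1068 against 535, 846 and 627 (0.67, interval 0.13 to 1.21, adjusted p = 0.339 from limma), also within the range of P1 untreated libraries. *Ngfr* was at 221 and 314 against 165, 160 and 158 (0.71, interval 0.09 to 1.33, adjusted p = 0.376 from limma).

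*Slc1a3* was at 9248 and 7671 in P4 treated and at 10165, 11365 and 11159 in P4 untreated libraries (-0.37, interval -0.69 to -0.04, adjusted p = 0.376 from limma), below as it was at P1. *Anxa5* was at 47304 and 50806 against 58290, 70478 and 71170 (-0.44, interval -0.80 to -0.07, adjusted p = 0.349 from limma). *Fabp7* (7860 and 7120), *Npy* (6041 and 10196 against 6595, 7666 and 6911) and *Matn4* (1142 and 1051 against 1865, 955 and 1245) overlapped with the untreated libraries. *Epyc* was at 166522 and 192690, overlapping too, with a log2 fold change of 0.26 (interval -0.16 to 0.69). The comparisons of treatment at P4 and of age in untreated pups share the P4 untreated libraries, so their opposite signs for *Prox1*, *Ngfr* and *Emx2* are not separate observations.

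**Figure D3:**
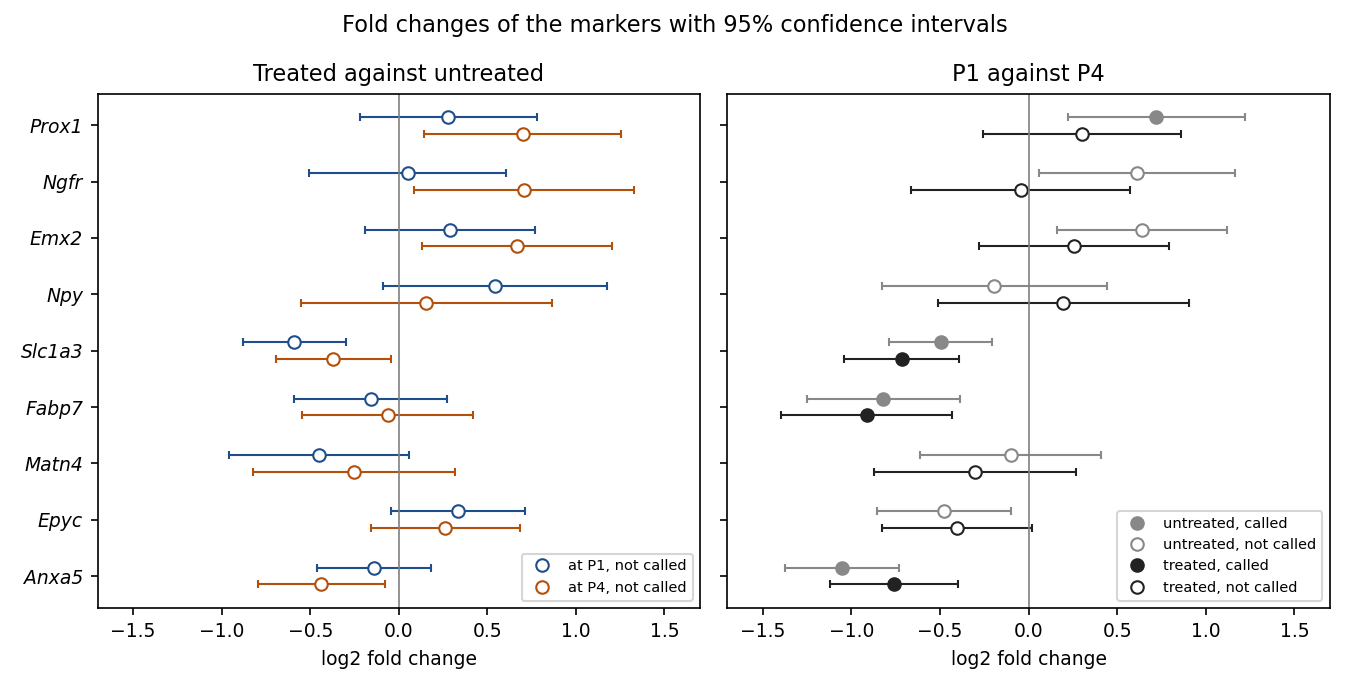
Log2 fold changes of the 9 markers with 95% confidence intervals from limma, for treated against untreated at each age (left) and P1 against P4 (right). Filled points were called; no point is filled on the left, where Slc1a3 lies below 0 at both ages (-0.59 and -0.37).

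Whether treatment acted differently on the markers at the 2 ages was asked with an interaction term. No marker was called by limma, and 0 of 9 had an unadjusted p under 0.05, while 0% of all genes were called and 5.8% had such a p. The largest interaction was that of *Ngfr* at -0.66 (interval -1.49 to 0.17, adjusted p = 0.863 from limma). For *Slc1a3* it was -0.22 (interval -0.66 to 0.22), so the test shows neither that the responses were alike nor that they differed.

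The ratio of *Prox1* to *Slc1a3* sets a gene of pillar and Deiters cells against a gene of inner phalangeal and border cells within each library, and does not depend on the scaling of libraries. It was chosen after the values of both were seen and carries no test. In P1 untreated libraries it was 0.319, 0.316 and 0.236 and in P1 treated ones 0.365, 0.753 and 0.529. In P4 untreated libraries it was 0.131, 0.107 and 0.134 and in P4 treated ones 0.219 and 0.307. Treated libraries lay above untreated ones at both ages, and untreated libraries were lower at P4 than at P1. P1 treated replicate 1 exceeded the highest P1 untreated library by little. Glia also express *Slc1a3*, and their part in the ratio was not tested. Sex and treatment cannot be told apart at P4, so the ratio there is not a measure of treatment alone. At both ages only treated pups carried the Sox2-CreER allele, so the ratio is not a measure of stabilization alone.

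**Figure D4:**
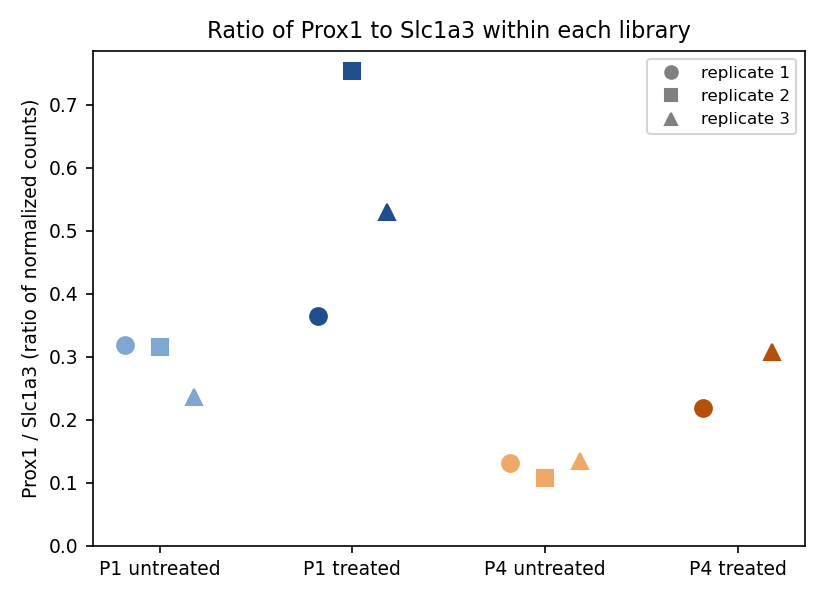
Ratio of the normalized counts of Prox1 and Slc1a3 in each library (y axis from 0, no length correction), by group. The P4 treated libraries, at 0.219 and 0.307, lie above the P4 untreated ones and beside the P1 untreated ones, and P1 treated replicate 2 is highest at 0.753.

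*Sox2*, which drives the Cre, was itself lower in P1 treated libraries, at 4930, 5542 and 6006 normalized counts against 8042, 10170 and 8121 (limma log2 fold change -0.67, standard error 0.101, adjusted p = 0.03). P4 libraries held 7993 and 7577 normalized counts of it against 10485, 10101 and 10461 (-0.41, adjusted p = 0.272 from limma). In the same comparison the ratio of *Slc1a3* to *Sox2* was 0.729 to 1.26 in P1 treated and 0.806 to 1.02 in P1 untreated libraries, with overlap. The ratio of *Prox1* to *Sox2* was 0.386 to 0.675 in P1 treated and 0.198 to 0.325 in P1 untreated libraries, without overlap. *Prox1* itself overlapped between these groups, and the denominator *Sox2* was lower in the treated ones. The paper lists lower *Sox2* from knock-in alleles, Sox2-CreER among them, as a limitation. Only treated pups carried this allele, so allele and β-catenin stabilization cannot be told apart in any comparison of treated with untreated libraries. This holds for *Sox2*, for the markers and for the ratios, at both ages. What part the level of *Sox2* has in the marker values was not tested. No group here carried the allele without the floxed β-catenin, so these libraries cannot separate that part from stabilization.

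Other genes of supporting cells were read beside the markers. Of all genes tested, 0.353% were called with treatment at P1 and 0.0543% at P4. At an unadjusted p under 0.05 there were 12.2% and 11.6%. Of 11 further pillar and Deiters cell genes, 2 rose with treatment at P1 and 0 fell, namely the Wnt target and receptor gene *Lgr5* (2494 ± 393 to 9011 ± 279 normalized counts, SD, n = 3 each, 1.86 by limma, adjusted p = 8.7e-04) and *Cd44*, which encodes the hyaluronan receptor (1.08, adjusted p = 0.0136). At P1 an unadjusted p under 0.05 was held by 4 of the 11. The median of the list was 0.17, against 0.00 over all genes tested. At P4 limma called 0 of 11 (6 at an unadjusted p under 0.05), with a list median of 0.38. *Lgr5* was at 6829 ± 675 (SD, n = 2) against 3267 ± 602 (SD, n = 3), with an adjusted p of 0.0697. Of 12 general supporting cell markers, 2 rose with treatment at P1, the connexin genes *Gjb2* (0.88) and *Gjb6* (0.65). *Sox2*, the gene of the knock-in allele, was the 1 called lower. An unadjusted p under 0.05 was held by 8 of these 12 at P1. At P4 limma called 0 of them (4 at an unadjusted p under 0.05). Of 10 genes of the medial supporting cells and the greater epithelial ridge and 7 of the outer sulcus, Hensen and Claudius cells, limma called 0 at either age of treatment, with 3 and 2 at an unadjusted p under 0.05 at P1 and 3 and 2 at P4. Of 12 Wnt target genes, *Lgr5* and *Sp5* (1.79, adjusted p = 0.0469) rose at P1, while 8 of 12 had negative log2 fold changes that were not called, such as *Lef1* (-1.24) and *Notum* (-1.64), and the list median was -0.07. An unadjusted p under 0.05 was held by 5 of these Wnt target genes at P1. At P4 limma called 0 of these 12 (5 at an unadjusted p under 0.05), with a list median of -0.21. These counts rested on single libraries. Over all genes, 65 calls with treatment at P1 became 371 without P1 treated replicate 1, 48 without replicate 2 and 13 without replicate 3. They became 19 and 11 without P1 untreated replicate 1 and 3. None of the 12 general markers was called without P1 treated replicate 2 or 3 or P1 untreated replicate 1 or 3, and 1 was without P4 treated replicate 1 or 3 or P4 untreated replicate 1 or 3. Of the pillar and Deiters genes 1 was called without P1 treated replicate 3 or P1 untreated replicate 1, and at P4 2 were without P4 untreated replicate 3 and 1 without P1 untreated replicate 3. Without P1 treated replicate 1, 2 outer sulcus, Hensen and Claudius cell genes and 4 Wnt target genes were called at P1, and 1 Wnt target gene was called when any 1 of 8 other libraries was left out.

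With age in untreated pups, the lists held genes of both directions, other than that of the outer sulcus. Of all genes tested, 10.5% were called higher and 9.38% lower at P1. Of the 12 general markers 2 were higher and 6 lower at P1, of the 11 pillar and Deiters genes 1 and 2, of the 10 medial genes 2 and 2, and of the 7 genes of the outer sulcus, Hensen and Claudius cells 0 and 2. *Lfng*, which modifies Notch (-1.39), *S100b*, a calcium-binding protein gene (-0.81), and *Gata3*, a zinc finger factor gene (-1.30), were lower at P1, as *Slc1a3* and *Fabp7* were. *Spry4*, an inhibitor of FGF signaling (1.59), *Hes1*, a Notch effector (1.02), and the tectorin gene *Tecta* (0.98) were higher at P1, as *Prox1* was. *Tectb*, the other tectorin gene, went the other way (-0.90). Between treated libraries the counts were 2 and 5, 0 and 0, 2 and 1, and 0 and 2, where 11.1% of all genes were called. Without P4 treated replicate 1 or 3, 2 general markers were called there, and without replicate 3, 1 medial gene; 1 gene of the outer sulcus list was called without either. In untreated pups, 4 general markers were called without P1 untreated replicate 1 and 5 without P1 untreated replicate 3 or P4 untreated replicate 1 or 3, and of the pillar and Deiters genes 5 without P1 untreated replicate 2 and 1 without replicate 3.

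Relatives and partners of the markers gave 37 genes in the table, of which 32 were tested. With age in untreated pups 7 were higher and 2 lower at P1, and 23 did not pass, where 10.5% of all genes were called higher and 9.38% lower. The annexins split: *Anxa5* rose with age, and so did *Anxa6* (-0.52, adjusted p = 0.032 from limma), while *Anxa4* (1.10, adjusted p = 7.52e-04), *Anxa2* (0.64) and *Anxa11* (0.63) were higher at P1. Among the amino acid transporters, *Slc1a3* rose while *Slc1a4* fell from 2475 ± 182 to 1807 ± 82.2 normalized counts (SD, n = 3 each, 0.45 by limma, adjusted p = 0.00383), and *Slc1a6* was higher at P1 (0.95). *Fabp3*, the heart fatty acid binding protein gene, rose with age as *Fabp7* did (-1.33), and *Fabp5* was not called. *Ogn*, a small proteoglycan gene like *Epyc*, was higher at P1 (2.17). Of the neurotrophins, *Ntf3* was higher at P1 (0.59) and *Bdnf* was not called. With treatment, limma called 0 of the 32 at P1 (8 at an unadjusted p under 0.05) and 0 at P4 (2). Of all genes, 12.2% had such a p at P1 and 11.6% at P4. Between treated libraries *Slc1a4* (0.74) and *Ogn* (2.36) were called higher at P1. In untreated pups 4 relatives were called without P1 untreated replicate 1 or P4 untreated replicate 3, and in treated ones 1 without P4 treated replicate 1 or 3, 4 without P1 treated replicate 3 or P1 untreated replicate 2 and 6 without P1 treated replicate 1.

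For each marker, the genes with the most similar pattern over the 11 libraries were found by the root mean square difference of centred log2 values. *Mob1a*, a Hippo pathway adaptor gene, lay nearest to *Prox1* at 0.147, where *Prox1* itself had a spread of 0.462 around its mean. *Ckb*, the brain creatine kinase gene, lay nearest to *Anxa5* (0.115, own spread 0.523), and *Ntrk2*, the receptor gene for brain-derived neurotrophic factor, nearest to *Matn4* (0.161, own spread 0.338). *Hlcs* lay nearest to *Epyc* (0.121), *Syt6* to *Ngfr* (0.149), *Cabp7* to *Npy* (0.183), *Srsf12* to *Emx2* (0.2), *A230056P14Rik* to *Fabp7* (0.118) and *Gm6277* to *Slc1a3* (0.136). No marker was among the nearest pair of genes of another marker.

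Glia of the nerve also express *Ngfr*, *Fabp7* and *Slc1a3*, so their genes were read in the same libraries. The summed level of 13 Schwann and satellite glia markers was 38372 to 43892 normalized counts in P1 treated, 30587 to 39439 in P1 untreated, 36389 and 38683 in P4 treated and 30889 to 44876 in P4 untreated libraries. Much of the sum was *Sox10* (14727 to 23774), which the cochlear epithelium also expresses. *Mbp*, the myelin basic protein gene, was at 6111, 1630 and 4181 in P1 treated and at 1714, 1218 and 5469 in P1 untreated libraries, with overlap. P1 treated replicate 2, lowest of its group in *Mbp*, was lowest in *Fabp7*. Its *Ngfr*, at 317, was level with the 316 of P1 treated replicate 3. At P4 *Mbp* was at 1847 and 1933 in treated and at 2350, 1407 and 5798 in untreated libraries. Limma called 0 of 13 glia markers with treatment at P1 (2 at an unadjusted p under 0.05) and at P4 (3), and with age in untreated libraries 1, *Egr2*, which also answers to stimuli as an early gene (3.09), or 2 without P1 treated replicate 2 or P4 untreated replicate 2. Of all genes, 12.2% had an unadjusted p under 0.05 with treatment at P1 and 11.6% at P4, and 19.9% were called with age in untreated libraries. The part of glia in the values of *Fabp7*, *Ngfr* and *Slc1a3* was not tested.

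Some markers share bases with other genes in the annotation. *Emx2* overlaps the antisense gene *Emx2os* by 264 exonic bases, *Prox1* overlaps *Prox1os* by 133 and *Matn4* overlaps *Rbpjl* by 149, each on the opposite strand. *Emx2os* stood at 131 to 704, *Prox1os* at 66 to 110 and *Rbpjl* at 59 to 132 normalized counts. The sources used here do not say whether counting used the strand, so reads from the shared bases may have been given to either gene.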

How the data were processed

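RNA of 12 samples is described per the labels, and 11 were in the deposited table. The values are a score per gene: the authors divided counts by 1 size factor per library and rounded them to whole numbers. They aligned reads to mm10 (Ensembl build 75) with STAR 2.5.2b, counted with featureCounts for quality control, and quantified with Sailfish and tximport. The sources used here do not say which of these counts were normalized. Of 27755 entries, 1 with a repeated ID was left out. The spacing of low values gave 39.82 to 47.7 M reads before normalization. As values are not raw counts, log2(value + 1) was compared with limma 3.58.1 in R 4.3.3 (eBayes with trend), for genes with a mean of at least 10. The fit was tested on simulated data. Each library is 1 pup.

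Exon lengths came from GENCODE M21 (GRCm38), not the authors' annotation. Named genes were the members, up to 3 called genes per list and comparison (else the gene with the largest t), the 2 nearest genes of each member, *Sox2*, *Ctnnb1* and *Xist*; *Emx2os*, *Prox1os*, *Rbpjl*, *Tectb*, *Ogn*, *Ntf3*, *Bdnf*, *Anxa6*, *Anxa11*, *Slc1a6*, *Fabp3*, *Fabp5*, *Mbp*, *Sox10*, *Dct*, *Tyr*, *Lef1* and *Notum* were named besides, after their values were seen. *Slc12a2*, *Pou3f4*, *Twist1*, *Tbx18*, *Pdgfra*, *Col1a1*, *Cdh11* and *Dcn* were also named after their values were seen. The members and lists were chosen with earlier results of these data known. Replicate numbers had residual correlations of 0.115 to 0.136 in the age comparison of untreated libraries, which counts as pairing by the preset limit, and at most 0.026 elsewhere.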

Additional observations from a re-analysis of the deposited data

How the results depend on the processing

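Each value was recomputed under 24 other settings: another pseudocount or filter, eBayes without trend, only the groups compared, scaling by median of ratios or quantiles, a weight per library, log2 *Xist* as a covariate, the replicate block, an adjusted p under 0.1, no fold threshold, and without each library in turn. Leaving out a P4 treated library left 1, assumed to vary like the other groups. The number of markers called in P1 treated against P4 treated was 0 with only the groups compared and 0 with *Xist* as a covariate. Over all genes 869 and 28 were called there, instead of 2034. In P1 untreated against P4 untreated the number of markers was 2 with *Xist* as a covariate. It was 6 with only the groups compared, with weights or at an adjusted p under 0.1. Over all genes these settings gave 1807, 3598, 4309 and 4757 calls, instead of 3659. Without single libraries the numbers were 0 to 1 for treatment at P1, 0 to 0 at P4, 2 to 5 for age in untreated, 0 to 4 for age in treated libraries and 0 to 0 for the interaction. With the replicate block 4 markers were called between untreated ages and 2 between treated ones, and besides the changes given in the report the block changed no call of a marker.

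Of 1071 recomputed fold changes of markers 25 changed sign, 0 of them of a called value; the cause was not tested. For *Ngfr* with treatment at P1 these were -0.012 with weights and -0.021 with *Xist* as a covariate. With that covariate they were also -0.11 for *Emx2* at P1, -0.46 for *Npy* at P4, -0.12 for *Prox1* and -0.37 for *Emx2* between treated ages, and 0.066 for *Fabp7* in the interaction. Without single libraries, treatment at P1 ran from -0.11 to 0.36 for *Ngfr*, -0.44 to 0.057 for *Fabp7* and -0.28 to 0.036 for *Anxa5*. Treatment at P4 ran from -0.13 to 0.0083 for *Fabp7*, -0.22 to 0.53 for *Npy* and -0.48 to 0.0068 for *Matn4*. Age in untreated libraries ran from -0.49 to 0.017 for *Npy* and -0.33 to 0.16 for *Matn4*, and in treated ones from -0.30 to 0.26 for *Ngfr* and -0.18 to 0.57 for *Npy*. The interaction ran from -0.38 to 0.12 for *Fabp7*, -0.11 to 0.20 for *Epyc* and -0.46 to 0.025 for *Matn4*. The lowest value of a marker was 158 normalized counts, and groups held 2 or 3 pups.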

Other observations

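Genes of other cell types were read in the same comparisons. Of all genes tested, 12.2% had an unadjusted p under 0.05 with treatment at P1 and 11.6% at P4. With age in untreated libraries 10.5% were called higher and 9.38% lower at P1. Of 18 hair cell markers limma called 0 with treatment at P1 (0 at an unadjusted p under 0.05) and 0 at P4 (1). With age in untreated libraries 2 were higher and 6 lower at P1, among them the outer hair cell genes *Ocm* (-3.46) and *Slc26a5* (-3.15) and the vesicular glutamate transporter gene *Slc17a8* of inner hair cells (-2.39). Of these, 5 were called without P1 untreated replicate 1 or 3 or P4 untreated replicate 1 or 3.

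Of 12 mesenchyme markers 1, the matrix gene *Lum*, rose with treatment at P1 (0.75, adjusted p = 0.0364 from limma), while the list median was -0.98. An unadjusted p under 0.05 was held by 6 of the 12 at P1 and by 3 at P4, where limma called 0. *Pou3f4* (-1.82), *Twist1* (-1.81), *Tbx18* (-1.73) and *Pdgfra* (-1.42) were lower in P1 treated libraries without overlap, but were not called. Groups did not overlap for 15.3% of all genes. *Col1a1* (0.31), *Cdh11* (0.19) and *Dcn* (0.14) had positive log2 fold changes there. The list summed to 141189 to 214318 normalized counts in P1 treated and 148663 to 170524 in P1 untreated libraries. At P4 it summed to 194135 and 217432 in treated and 189227 to 207738 in untreated ones. Much of these sums was *Lum*, at 94107 to 132049 in P1 treated and 60859 to 66546 in P1 untreated libraries. The part of mesenchyme in the marker values was not tested. Over all genes, 371 were called with treatment at P1 without P1 treated replicate 1, instead of 65. The list gave 6 calls without P1 treated replicate 1 and 0 without 8 of the other libraries. With age in untreated libraries 3 were higher and 1 lower at P1, with a median of 1.08, and 2 were called without P1 untreated replicate 1 or 3 or P4 untreated replicate 1. Of 10 immune cell markers limma called 0 with treatment at P1, where 9 had an unadjusted p under 0.05 (list median -1.12); 3 were called without P1 treated replicate 1. Their summed level was 1687 to 3518 normalized counts in P1 treated and 3873 to 5108 in P1 untreated libraries. Of 11 neuron, 9 stria vascularis and melanocyte and 9 endothelial and blood markers tested, limma called 0 with treatment at either age (3, 1 and 1 at an unadjusted p under 0.05 at P1 and 2, 0 and 1 at P4). With age in untreated libraries *Tubb3*, a tubulin gene of neurons, was lower at P1 (-2.20; not called without P1 untreated replicate 1 or 2 or P4 untreated replicate 2 or 3), as was *Kcnj10*, the potassium channel gene of the stria and of supporting cells (-2.14).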
